A study of Zea mays with 12 samples.

Results

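The 6 genes described here are adh1 (alcohol dehydrogenase), pdc2 and pdc3 (pyruvate decarboxylases), GAPC1 (glyceraldehyde phosphate dehydrogenase), eno1 (enolase) and aldh5 (aldehyde dehydrogenase), out of 1108 maize genes named by the platform's annotation. They were found by matching gene symbols and synonyms, and 12 probe sets carry them: 1 each for adh1, pdc3 and aldh5, 4 for pdc2, 2 for GAPC1 and 3 for eno1. Of these 12, 11 were bright enough to be tested. The 6 genes were chosen by the values themselves: an earlier analysis of the same arrays had found them to differ between giant and control cells. Their differences between these cell types are therefore given as a description with no test, and only changes with time, which the choice did not use, are tested for them.

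Glycolysis breaks sugar down to pyruvate, and glyceraldehyde phosphate dehydrogenase and enolase catalyse steps of its lower part. When respiration cannot take up all of the pyruvate, pyruvate decarboxylase turns it into acetaldehyde, which alcohol dehydrogenase reduces to ethanol, so that the cofactor needed by glycolysis is restored, or which aldehyde dehydrogenases oxidise to acetate. In maize roots several of these enzymes belong to the set that is made when flooding cuts the supply of oxygen, and alcohol dehydrogenase is the best known of them.

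The root-knot nematode Meloidogyne incognita makes root cells enlarge into giant cells, on which it feeds. Maize seedlings from a cross of A188 and B73, 2 weeks old and grown in sand and turface, were each given 1000 second-stage juveniles, and cells were cut from frozen roots by laser capture. The groups were giant cells at 14 days (about 40 to 60 cells from about 5000000 square micrometres), control cells at 14 days (about 75 to 150 cells from about 13000000 square micrometres, taken where the same infested roots were free of nematodes), giant cells at 21 days and control cells at 21 days, captured likewise. Each group had 3 arrays, described as biological replicates, and every plant in the series was infested, so there are no cells of uninfested plants among them. What tissue layers the control cells came from is not given in the labels, and no marker of giant cells was at hand to check that label.

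Signals are MAS5 signals on a linear scale, and differences are in log2 units of the signal plus 9.5, giant minus control, with standard errors from a limma fit of all 12 arrays. Of 12080 probe sets tested, 42.2% differed between giant and control cells in the mean of both days at a limma adjusted p under 0.05, and the median difference of all tested was 0.15. At 14 days alone 27.5% differed, 15.5% being higher, and at 21 days alone 18.4% (9.63% higher and 8.73% lower). Control transcripts added at hybridization were brighter on giant-cell arrays by 0.70 log2 units, and scaling the arrays to them moved that median to -0.53. Called probe sets were then split into 463 higher and 4999 lower, in place of 3038 higher and 2055 lower. Mean differences of the 6 genes, and of many of the other genes below, are therefore also given with that scaling. In the mean of both days 3 of 4 tested xylem markers were lower in giant cells, as were 17.0% of all tested probe sets. The other, LAC1, stood at 0.40 (limma adjusted p = 0.28), and none of the 4 passed at 21 days alone. Their summed signal was 308 to 1017 on giant-cell arrays and 715 to 3022 on control arrays. Among 3 genes listed for root meristem, lg3 and rs2 were higher in the mean of both days, as were 25.1% of all tested probe sets. Neither passed at 21 days alone (limma adjusted p = 0.094 and 0.06). The third, kn1, was too dim to test and overlapped on both days. The summed signal of these genes was 186 to 487 on giant-cell arrays and 60.4 to 153 on control arrays. The listed gene wox5 had no probe set. Whether lg3 and rs2 mark root meristem in these samples was not tested, so no meristem identity is read from them. Of the root hair and epidermis genes, rop6 was lower (-2.11, limma adjusted p = 0.00028) and rbohB higher (0.76, adjusted p = 0.0042), with a summed signal of 1055 to 1502 on giant-cell arrays and 824 to 1237 on control arrays. Of 6 genes of photosynthetic tissue, 5 were too dim to test, and sut1, a phloem marker, ran from 3.51 to 44.3 on giant-cell arrays and from 7.97 to 38.2 on control arrays. The part that tissue makeup played in the values below was not tested, and in pooled cells a smaller share of a cell type cannot be told from less RNA per cell.

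The alcohol dehydrogenase gene adh1 (Gene ID 542363) was higher on every giant-cell array than on any control array. Its signals were 5404, 9917 and 7680 in giant cells at 14 days, against 1016, 2014 and 4142 in control cells at 14 days. At 21 days they were 6525, 8179 and 11759 in giant cells, against 1416, 5072 and 2394 in control cells. The highest control array, array 2 at 21 days, came close to the lowest giant-cell array, array 1 at 14 days. The giant-cell arrays spanned a 2.17-fold range and the control arrays a 4.95-fold range, both of signal plus 9.5, as are the ranges given for other genes. For the median tested probe set these ranges were 2.09-fold and 2.16-fold, so adh1 varied more among control arrays than most probe sets did. The difference was 1.86 ± 0.50 at 14 days and 1.73 ± 0.50 at 21 days (SE, n = 3 arrays per group), or 3.47-fold in the mean. It was 1.10 in the mean when scaled to the added transcripts. In the background, 13.3% of tested probe sets had all giant-cell arrays above the control arrays of the same day on both days, and nothing is read from adh1 being among them, since it was chosen for its difference.

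**Figure D1:**
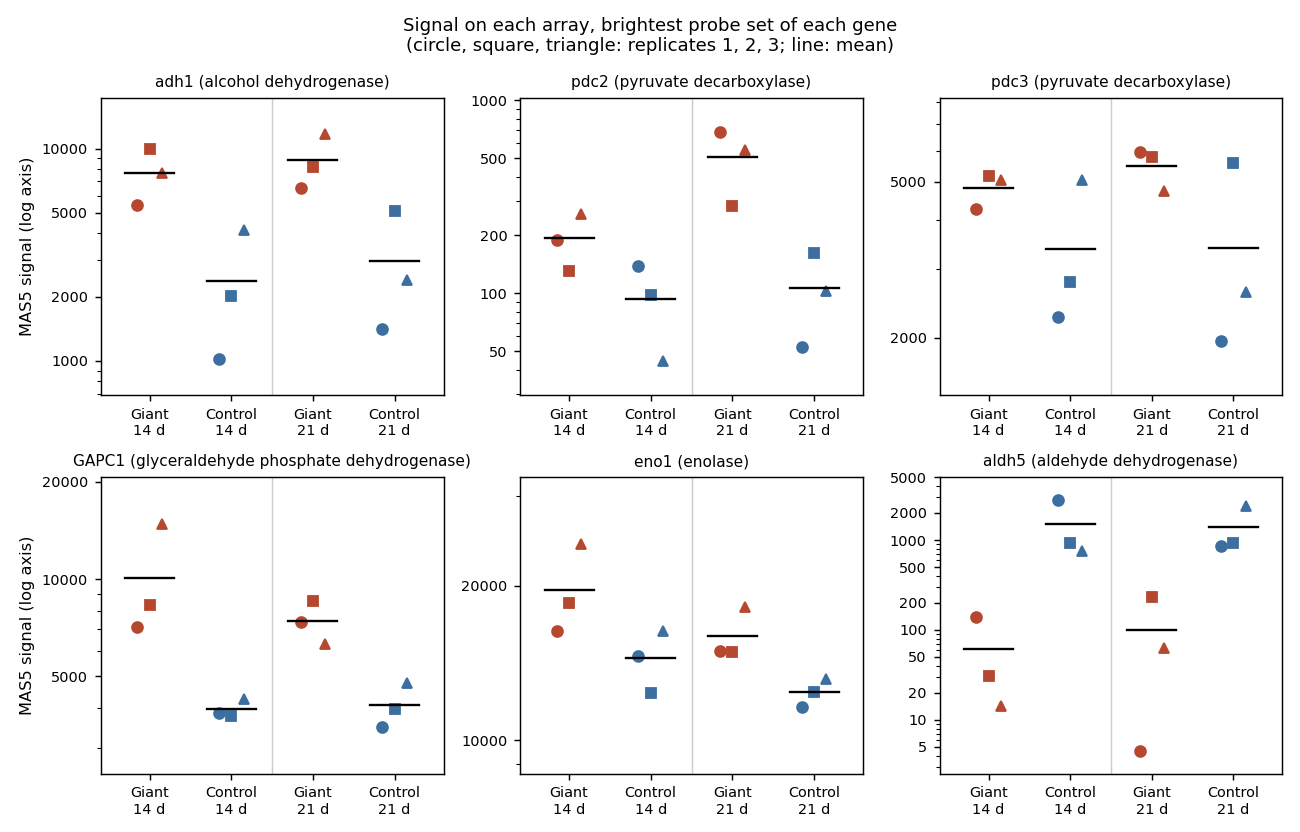
MAS5 signal (log axis) of the brightest probe set of each of the 6 genes on each array, with giant cells in red, control cells in blue, replicates 1, 2 and 3 as circle, square and triangle, and the group mean as a line. Giant-cell signals of adh1 and GAPC1 lie above all control signals, those of aldh5 lie below all of them, and those of pdc3 overlap with the control arrays on both days.

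Pyruvate decarboxylase supplies the acetaldehyde that alcohol dehydrogenase reduces, and its 2 genes differed in how clearly the cell types separated. The brightest probe set of pdc2 (Gene ID 542651) had signals of 189, 130 and 258 in giant cells at 14 days, against 139, 98.3 and 44.2 in control cells. At 21 days it had 689, 283 and 552 in giant cells, against 52.8, 162 and 102 in control cells. The cell types overlapped at 14 days, where array 2 of giant cells lay just below array 1 of control cells, and were apart at 21 days. In the background, 26.1% of tested probe sets had all giant-cell arrays above the control arrays at 14 days and 22.7% at 21 days, and 17.3% and 15.5% had them below. Its difference was 1.04 ± 0.48 at 14 days and 2.20 ± 0.48 at 21 days, or 3.07-fold in the mean. This probe set carries the suffix that the manufacturer gives to probes matching more than a single transcript, so it may also read related genes.

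The other 3 probe sets of pdc2 ran the same way at 21 days. The second brightest had 168, 204 and 418 in giant cells at 14 days, against 58.7, 124 and 46.6 in control cells. Giant cells at 21 days had 300, 497 and 371, against 24.1, 162 and 183 in control cells. It was thus apart on both days, and its difference was 1.66 ± 0.60 at 14 days and 1.91 ± 0.60 at 21 days. The third did not separate the cell types at 14 days, with 167, 77.1 and 29.9 in giant cells against 56.2, 67.3 and 56.1 in control cells. At 21 days it had 620, 153 and 764 in giant cells, against 42.6, 120 and 8.78 in control cells. The dimmest missed the filter on low signals and has no fitted value. Its group means were 76.6 ± 22.6 in giant cells and 26.7 ± 20.4 in control cells at 14 days, and 126 ± 28.0 and 41.3 ± 17.2 at 21 days (SD, n = 3 each), with no overlap on either day. In the mean of both days the 3 tested probe sets of pdc2 differed by 1.62 to 1.79 log2 units, and by 0.96 to 1.14 with scaling to the added transcripts.

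For pdc3 (Gene ID 541919) the cell types overlapped. Its signals in giant cells were 4252, 5168 and 5051 at 14 days, against 2264, 2768 and 5055 in control cells. At 21 days they were 5946, 5781 and 4723 in giant cells, against 1963, 5582 and 2617 in control cells. Only array 3 at 14 days and array 2 at 21 days of the control cells reached the giant-cell range, and they were also the 2 highest control arrays of adh1. Giant-cell arrays spanned a 1.4-fold range for pdc3 and control arrays a 2.83-fold range. The difference was 0.60 ± 0.35 at 14 days and 0.83 ± 0.35 at 21 days, or 1.64-fold in the mean, and it was 0.02 with scaling to the added transcripts.

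GAPC1 (Gene ID 542367) encodes a cytosolic glyceraldehyde phosphate dehydrogenase, the enzyme that opens the energy-yielding part of glycolysis. Its brighter probe set had signals of 7103, 8320 and 14826 in giant cells at 14 days, against 3843, 3775 and 4265 in control cells. At 21 days it had 7352, 8587 and 6297 in giant cells, against 3494, 3960 and 4774 in control cells. All 6 giant-cell arrays lay above all 6 control arrays, and array 3 of giant cells at 14 days stood far above the others. In the background 13.3% of tested probe sets were above the control arrays of the same day on both days. Nothing is read from GAPC1 being among them, since it was chosen for its difference. The difference was 1.27 ± 0.25 at 14 days and 0.86 ± 0.25 at 21 days, or 2.10-fold in the mean, and 0.37 with scaling to the added transcripts. Leaving out any single array kept the mean difference between 0.91 and 1.17. This probe set carries the same suffix as the brightest of pdc2, so it may also read related genes. The dimmer probe set had 85.3, 87.6 and 161 in giant cells at 14 days, against 107, 58.1 and 60.1 in control cells. At 21 days its giant-cell signals were 204, 173 and 156, against 152, 76.5 and 73.9 in control cells. It overlapped at 14 days, was apart at 21 days and differed by 0.67 ± 0.28 in the mean, and by 0.03 with scaling to the added transcripts.

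The array carries further probe sets for this enzyme among the manufacturer's controls, and those with clear signal did not all run the same way. A control probe set at the 3′ end of GAPDH had 13136, 14199 and 23354 in giant cells at 14 days, against 7731, 7175 and 8812 in control cells. At 21 days it had 14502, 14260 and 15791 in giant cells, against 7964, 6768 and 7780 in control cells. Like GAPC1 it was apart on both days, and its difference was 1.02 (1.06 for the 5′ probe set of the same transcript and 0.65 for the middle). These differences are without scaling to the added transcripts. The suffixes of these probe sets mark probes that may read several transcripts, so they may read GAPC1 or its relatives too. A different course was that of GAPC3 (Gene ID 542333), a relative known in maize to respond to lack of oxygen. Its brightest probe set had 2341, 10703 and 7698 in giant cells at 14 days, against 4176, 4440 and 6330 in control cells. In 21-day giant cells it had 2079, 2307 and 2242, against 5879, 6458 and 3797 in control cells. It was below the control arrays at 21 days and scattered across them at 14 days. A second control set, in the middle of a GAPDH transcript, likewise had 702, 4205 and 3168 in giant cells at 14 days, against 950, 1301 and 1729 in control cells. The 21-day giant cells had 589, 788 and 1585, against 1744, 3169 and 1638 in control cells. It too lay below the control arrays at 21 days and overlapped at 14 days. A companion middle probe set, which may read several transcripts, overlapped on both days, with 605, 933 and 1561 in giant cells at 21 days against 2063, 3176 and 1477 in control cells. The 3′ and 5′ probe sets of this second control set were dim, with signals of 0.88 to 25.0 and 2.47 to 22.2 in giant cells against 0.45 to 13.1 and 1.64 to 6.7 in control cells, and are not read further.

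**Figure D2:**
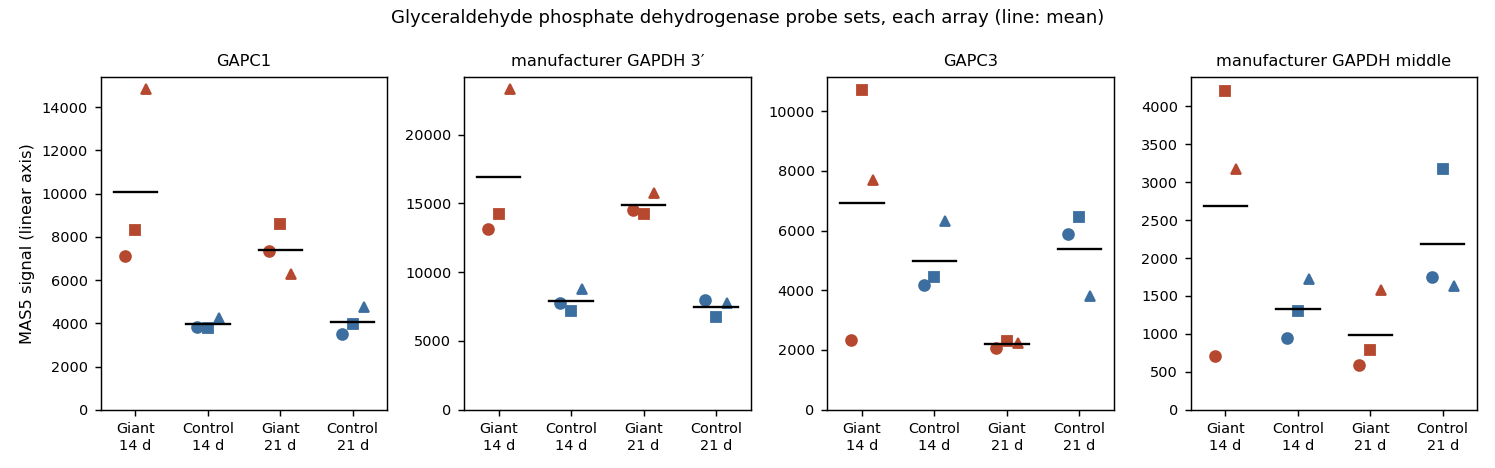
MAS5 signal (linear axis) of probe sets for glyceraldehyde phosphate dehydrogenase on each array, with giant cells in red, control cells in blue, symbols for replicates as above and lines for group means. GAPC1 and the manufacturer's 3′ probe set are higher in giant cells on both days, whereas GAPC3 and the manufacturer's middle probe set are lower in giant cells at 21 days and scatter at 14 days.

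Enolase makes the last intermediate but pyruvate of glycolysis, and the 3 probe sets of eno1 (Gene ID 732811) did not run the same way. The brightest had signals of 16304, 18474 and 24175 in giant cells at 14 days, against 14588, 12379 and 16352 in control cells. At 21 days it had 14900, 14870 and 18220 in giant cells, against 11594, 12421 and 13145 in control cells. Its difference was small, 0.43 ± 0.17 at 14 days and 0.36 ± 0.17 at 21 days (1.32-fold in the mean), and it turned to -0.30 with scaling to the added transcripts and to -0.08 with quantile normalization. The second brightest had 2738, 4305 and 4179 in giant cells at 14 days, against 2845, 3790 and 4230 in control cells. At 21 days it had 1634, 1693 and 1536 in giant cells, against 2223, 4168 and 2806 in control cells. It overlapped fully at 14 days (0.04 ± 0.26) and was lower on every giant-cell array at 21 days (-0.87 ± 0.26). The dimmest, with signals of 64.6 to 215 in giant cells and 84.8 to 384 in control cells, overlapped on both days and differed by -0.25 ± 0.38 in the mean. Averaged over its 3 probe sets, eno1 stood at -0.09.

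The aldehyde dehydrogenase gene aldh5 (Gene ID 541914, synonym rf2d) was far lower in giant cells. Its signals in giant cells were 140, 31.0 and 14.1 at 14 days, against 2800, 935 and 751 in control cells. At 21 days they were 4.51, 235 and 62.5 in giant cells, against 863, 935 and 2374 in control cells. Every giant-cell array lay below every control array, and giant-cell arrays spanned a 17.4-fold range, with array 1 at 21 days below the 9.5 added to each signal. The difference was -4.59 ± 0.92 at 14 days and -4.32 ± 0.92 at 21 days, and -5.04 in the mean when scaled to the added transcripts. Without scaling it was 22.0-fold lower in the mean, a fold that the added 9.5 compresses. In the background, 9.83% of tested probe sets had all giant-cell arrays below the control arrays on both days, and nothing is read from aldh5 being among them.

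**Figure D3:**
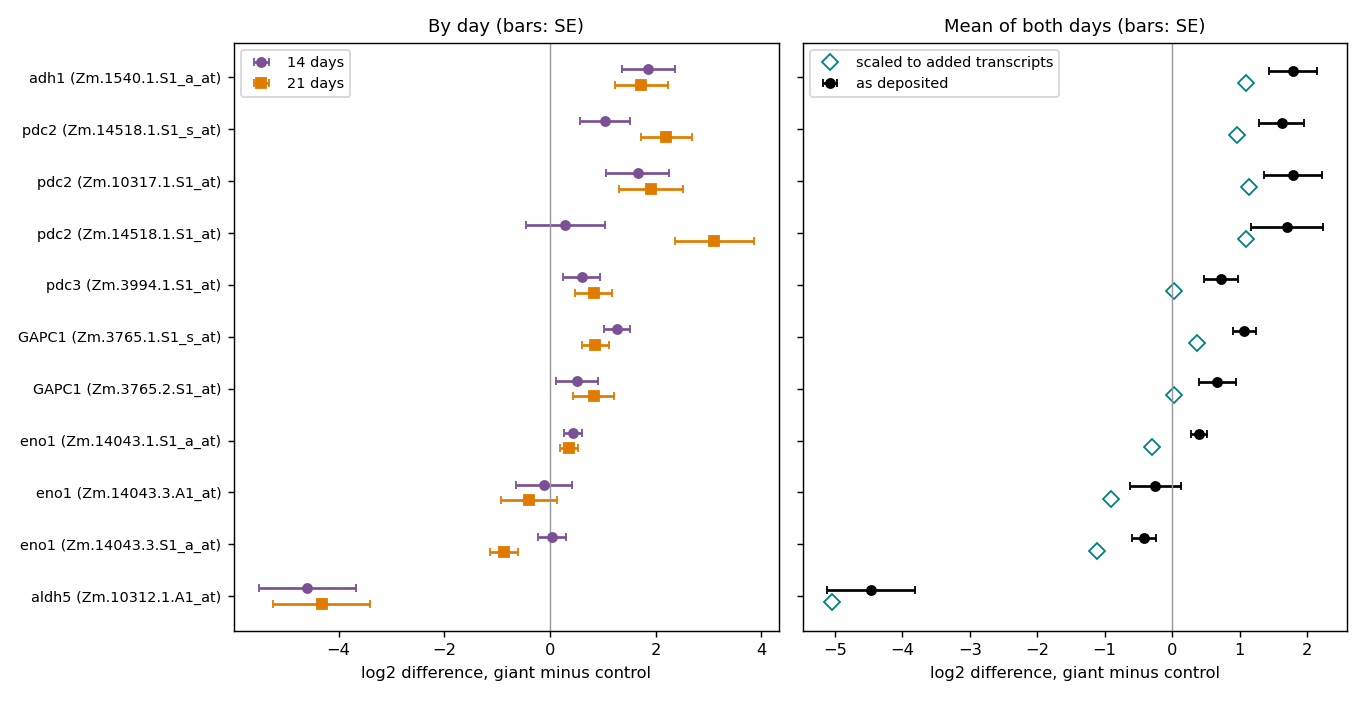
Log2 difference of giant minus control cells for the 11 tested probe sets of the 6 genes, at 14 and 21 days (left) and as the mean of both days (right), with bars for the standard error and open diamonds for the mean after scaling to the added control transcripts. The values of adh1 and pdc2 stay near or above 1 with that scaling, pdc3 and the dimmer GAPC1 probe set come to within 0.03 of 0, and the brightest eno1 probe set changes sign.

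The choice of genes rested on a threshold. Just inside it in the mean of both days lay the brightest probe sets of eno1 (0.40 ± 0.12) and pdc3 (0.72 ± 0.25). Outside it in that mean were eno2 (0.28 ± 0.14, limma adjusted p = 0.11), the dimmer probe set of pdc1 (0.065) and sus2 (0.055). At 14 days alone eno2 did pass (adjusted p = 0.037).

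Whether the 6 genes changed between 14 and 21 days was tested, since the choice did not use time. None of the 11 tested probe sets passed in giant cells, in control cells or in the difference of the giant-cell effect between days. Few probe sets did so anywhere on the array: 0.637% of those tested changed with time in giant cells, 0.0248% in control cells, and 0.0% differed in their giant-cell effect between days (839 of 12080 had an unadjusted p under 0.05). The nearest to the threshold was the second brightest probe set of eno1, whose 3 giant-cell arrays at 21 days all lay below those at 14 days. It stood at -1.17 ± 0.26 in giant cells (limma adjusted p = 0.058) and at -0.27 ± 0.26 in control cells (adjusted p = 0.74), and the difference between these was -0.90 ± 0.36 (adjusted p = 0.68). In giant cells it passed with a stricter filter (adjusted p = 0.049), with quantile normalization (0.036) and with replicate number as a block (0.048). It also passed when array 1 of either cell type at 14 days was left out (0.041 for control cells and 0.046 for giant cells). The brightest probe set of eno1 stood at -0.28 ± 0.17 in giant cells (adjusted p = 0.42).

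For pdc2 all 3 tested probe sets stood higher at 21 than at 14 days in giant cells, by 0.63 ± 0.60, 2.35 ± 0.75 and 1.32 ± 0.48 (limma adjusted p = 0.63, 0.14 and 0.18), and none passed. Its brightest probe set had 283 to 689 in giant cells at 21 days and 130 to 258 at 14 days, so these arrays did not overlap. In control cells the same probe sets stood at 0.37, -0.48 and 0.16. For adh1 the change with time was 0.20 in giant cells, with a 95% interval from -0.88 to 1.28, and 0.34 in control cells, from -0.74 to 1.42. For pdc3 it was 0.18 in giant cells, from -0.58 to 0.95. For GAPC1 it was -0.38 in giant cells, from -0.91 to 0.15. The interval of aldh5 in giant cells was the widest among the 6 brightest probe sets, from -1.73 to 2.25. With 3 arrays per group these intervals leave room for changes of over 1 log2 unit in adh1 upwards and in aldh5 in either direction.

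Other genes of the same pathways were described from a list of symbols, 20 of which had a named probe set. Those of glycolysis and fermentation that did not differ were largely left over by the choice of the 6 genes, so their count carries no information of its own. None of 7 further genes listed for glycolysis passed in the mean of both days, where 25.1% of all tested probe sets were higher and 17.0% lower. The 7 genes had a median difference of -0.18, against 0.15 over all tested probe sets. They were phi1 (0.10), which encodes phosphohexose isomerase, the aldolase gene ald1 (-0.18), GAPC2 (0.16), GAPC3 (-0.50), gpc4 (-0.27), eno2 (0.28) and C4ppdkZm1 (-0.26). The last encodes pyruvate orthophosphate dikinase and was also listed for photosynthetic tissue. Its other tested probe sets stood at 0.36 to 0.44 (limma adjusted p = 0.74 to 0.81). The brightest of these ran from 2.99 to 574 on giant-cell arrays and from 2.32 to 697 on control arrays. At 14 days alone eno2 was higher in giant cells (0.60, limma adjusted p = 0.037), with 6180, 7400 and 10792 in giant cells against 5220, 4831 and 5595 in control cells. At 21 days alone a dimmer probe set of GAPC3, with a suffix for probes that may bind other transcripts, was lower (-1.34, adjusted p = 0.047), whereas its brightest probe set stood at -1.24 (adjusted p = 0.061). With scaling to the added transcripts phi1, GAPC2 and eno2 turned negative, and 6 of the 7 genes were lower with an adjusted p under 0.05, gpc4 being the exception. Without array 1 of the 14-day giant cells eno2 also passed in the mean (0.37, adjusted p = 0.045), and with quantile normalization ald1 was lower past the threshold (-0.58, adjusted p = 0.0014).

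The closest relatives of the fermentation genes did not pass either. The second alcohol dehydrogenase gene, adh2, had signals of 1892, 1888 and 2386 in giant cells at 14 days, against 1330, 1148 and 2723 in control cells. Giant cells at 21 days had 1689, 3207 and 1682, against 2120, 5433 and 2158 in control cells. It stood at -0.07 ± 0.29 (limma adjusted p = 0.86) and overlapped on both days. For pdc1 the brighter probe set had 14.7, 297 and 124 in giant cells at 14 days, against 33.7, 22.0 and 168 in control cells. At 21 days its giant-cell signals were 29.7, 443 and 936, against 45.3, 152 and 50.7 in control cells. It stood at 1.17 ± 0.81 (adjusted p = 0.26) and varied 39.1-fold among giant-cell arrays. It passed when array 1 of the giant cells at 21 days was left out (1.84, adjusted p = 0.048). With scaling to the added transcripts it stood at 0.56 (limma adjusted p = 0.56). The dimmer probe set of pdc1 stood at 2.01 ± 0.82 (adjusted p = 0.065), with 4 of 6 giant-cell arrays above all control arrays and overlap on both days. With that scaling the dimmer probe set stood at 1.45 (limma adjusted p = 0.14) and adh2 at -0.76 (0.061).

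Among the aldehyde dehydrogenases, rf2c was lower in giant cells, like aldh5, and 4 others did not pass. A count of 1 in 5 is close to the 17.0% of all tested probe sets that were lower. Both rf2c and aldh5 (rf2d) are known in maize to encode cytosolic enzymes, and rf2 encodes a mitochondrial enzyme that restores male fertility in a cytoplasmic male-sterile line. Signals of rf2c were 45.7, 71.4 and 25.9 in giant cells at 14 days, against 715, 519 and 607 in control cells. In 21-day giant cells it had 6.17, 48.8 and 10.4, against 402, 414 and 322 in control cells. No giant-cell array came near a control array. The difference was -3.70 ± 0.33 (limma adjusted p = 1e-05), and it stayed past the threshold without any single array (adjusted p up to 6.8e-05) and with scaling to the added transcripts (-4.24). The others stood at -0.20 ± 0.18 for rf2 (adjusted p = 0.39), 0.36 for rf2b (0.42), -0.12 for ALDH10A5 (0.66) and -0.02 for ALDH10A9 (0.93), and with that scaling rf2 (-0.89), ALDH10A5 (-0.81) and ALDH10A9 (-0.71) were lower past the threshold as well. Whether probes for aldh5 and rf2c read each other's transcripts was not tested.

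Further genes known for their part in the response to lack of oxygen were looked at beside adh1. Of 6 tested, 3 fell and none rose in the mean of both days, with a median of -1.06. Over all tested probe sets 17.0% were lower and 25.1% higher. The list was drawn up with earlier results known, and adh1 and the other chosen genes were kept out of it. That none rose was thus partly set beforehand, and these counts are a description only. Hb2, a haemoglobin gene, had 30.2, 405 and 175 in giant cells at 14 days, against 341, 683 and 921 in control cells. The 21-day giant cells had 52.3, 166 and 307, against 814, 1005 and 810 in control cells. It fell by 2.31 on the log2 scale (SE 0.52, limma adjusted p = 0.0039), with the groups apart at 21 days and overlapping at 14 days. The sucrose synthase genes SH-1 (-1.42, adjusted p = 0.00022) and sus1 (-1.23, adjusted p = 0.00013), which cleave sucrose to feed glycolysis, fell as well. For sus1 and the brightest SH-1 probe set, no giant-cell array reached the control range of its day. Separation in this direction at both times was found in 9.83% of tested probe sets. The dimmer SH-1 probe sets also fell in the mean (-1.24 each, adjusted p = 0.0077 and 0.022). Neither passed at 14 days alone (adjusted p = 0.21 and 0.26), and the dimmest overlapped at 21 days. A further sucrose synthase gene, sus2, was at 0.79 (adjusted p = 0.055). The haemoglobin gene Hb was at -0.90 (adjusted p = 0.27) and the wall-modifying gene xet1 at -0.15 (adjusted p = 0.80). For sus2 the adjusted p ranged from 0.023 to 0.13 with an array left out, and it passed on leaving out array 1 of the 14-day giant cells, array 2 of the 21-day giant cells, or array 2 or 3 of the 21-day control cells. For Hb it was 0.019 on leaving out array 1 of the 14-day control cells. With scaling to the added transcripts sus2 stood at 0.11 (limma adjusted p = 0.79), Hb at -1.60 (0.052) and xet1 at -0.81 (0.12). The brightest SH-1 probe set (-2.12), sus1 (-1.92) and Hb2 (-2.97) stayed lower past the threshold with that scaling.

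**Figure D4:**
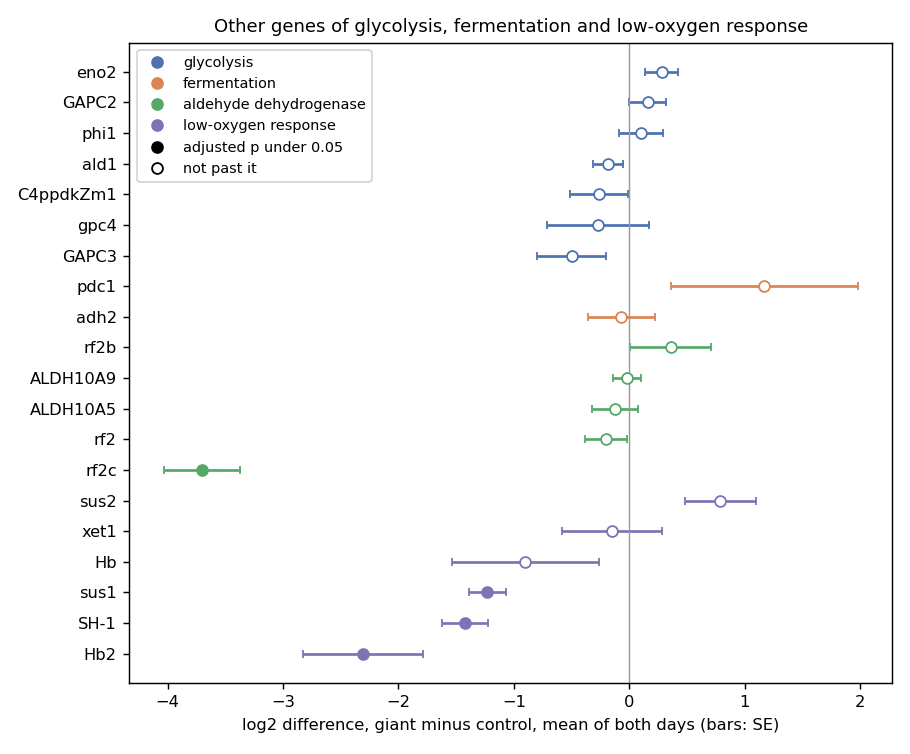
Log2 difference of giant minus control cells, mean of both days, for the brightest probe set of 20 other genes. These were listed for glycolysis, fermentation, aldehyde oxidation and the response to low oxygen. Bars show the standard error, and filled points a limma adjusted p under 0.05. The genes rf2c, Hb2, SH-1 and sus1 are lower in giant cells, and none of the 20 is higher past the threshold.

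Control-cell arrays differed among themselves in the fermentation genes. For adh1 the control signals were highest on array 2 at 21 days (5072) and array 3 at 14 days (4142), and all others lay at or below 2394. The same 2 control arrays were the highest for pdc3, adh2, pdc1, ald1, GAPC3, sus1, Hb and Hb2, so that pdc3 and 7 of the 20 other pathway genes had the same pair on top as adh1, which set the pair. In pdc1 the pair stood in the opposite order. Among all tested probe sets 3.44% had this pair on top, in either order. The pattern was noticed after the values had been seen, and some of these genes are close in level across control arrays: ald1 differed 1.32-fold from the lowest to the highest control array, against 4.7-fold for adh2 and 5.62-fold for pdc1. GAPC1, eno1, pdc2 and aldh5 did not share it. In aldh5 the highest control arrays were array 1 at 14 days and array 3 at 21 days. Array 1 was the lowest of its group for adh1 in all 4 groups, as it was for 1.08% of tested probe sets. The labels do not say what the arrays of a number share.

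**Figure D5:**
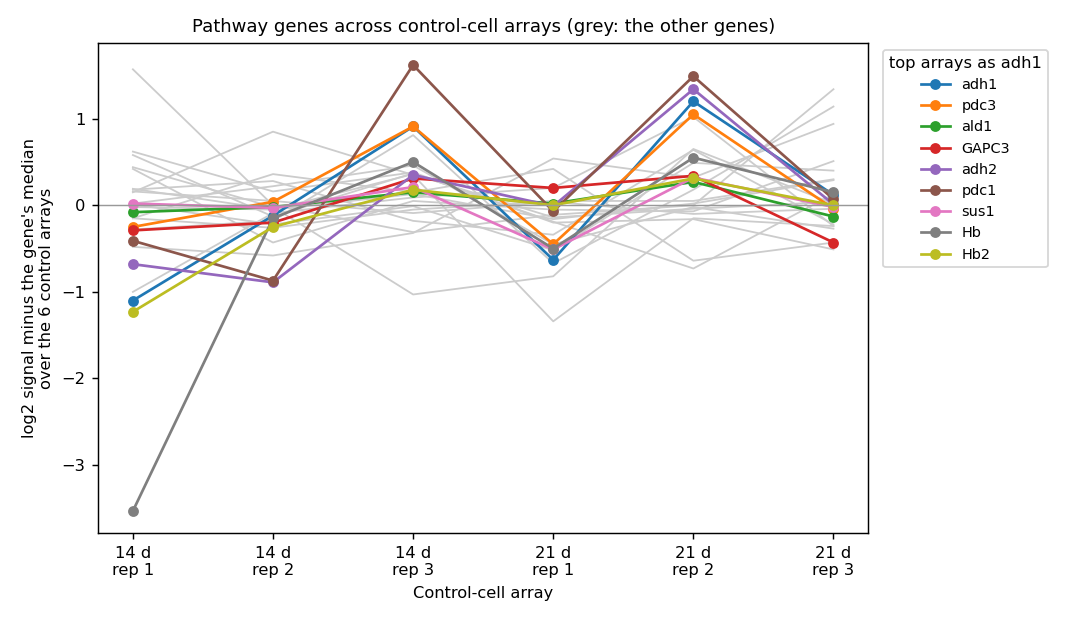
Log2 signal on each of the 6 control-cell arrays, relative to the gene's own median over them, for the 9 genes whose highest control arrays were those of adh1 (coloured) and the other 17 genes of the lists (grey). The coloured lines peak at replicate 3 of 14 days and replicate 2 of 21 days, where adh1 is 0.91 and 1.20 above its median.

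Named genes with the most similar course over the 12 arrays were sought among 692 by the root mean squared difference of centred log2 signals, a description in which the difference between cell types weighs heavily. For adh1 the nearest were the cellulose synthase gene CesA-3 (0.62), MRP2 (0.63) and pdc3 (0.65), with a median of 1.21 over all 692. For eno1 they were the translation elongation factor gene elfa3 (0.18), grp1 (0.20) and eno2 (0.21), against a median of 0.59. For GAPC1 the third was the auxin-binding protein gene abp1 (0.29), with a median of 0.80. For aldh5 they were the silicon channel gene Lsi1 (0.72), the sugar transporter gene MST1 (0.77) and ap1 (0.96), against a median of 2.53. For pdc3 the nearest was HMT-1 (0.27), with a median of 0.76, and for pdc2 it was smh3 (0.59), with a median of 1.19. The 6 genes were not each other's nearest neighbours, apart from pdc3 among the 3 nearest to adh1.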

How the data were processed

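Laser-captured RNA was amplified (NuGEN WT-Ovation Pico) and hybridized to Affymetrix maize arrays, per the labels' protocols, 1 array per sample. The deposited values are intensity: MAS5 signals made by the authors with Affymetrix Expression Console, per the submitters' processing notes. They are linear, and each array's 2% trimmed mean was 500.1 or 500.2. A scaling target or software version is not given in the sources used here. Of 17734 probe sets, 113 manufacturer's controls were kept out of the tests.

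Signals plus 9.5 (their 10th percentile) were taken to log2. Probe sets above their array's 40th percentile on at least 3 arrays, 12080 in all, were fitted with limma 3.58.1 (group means, variance trend) in R 4.3.3. Tests were two-sided, with Benjamini-Hochberg adjustment over all 12080 and a threshold of 0.05, and the script was tested on simulated data. Names came from the platform annotation through the RefSeq gene table of the B73 NAM-5.0 assembly. The brightest probe set stood for a gene, and every probe set of the 6 genes is described. The genes, lists and tests were chosen with earlier results of these data known. Symbols of uncertain kind (PK, PK1, pk3, pk4, PDK1, PDK2, pfk1) were left out, Hb was taken for the listed hb1, and 14 listed names had no probe set. Likeness was ranked over the brightest tested probe set of each named gene, with the 3 nearest kept. Arrays were not paired by replicate number in the main fit. Deviations from the group means correlated at -0.072 to 0.235 between same-numbered arrays, 4 of 18 pairs being above 0.1. Between differently numbered arrays they correlated at -0.269 to 0.196. Whether arrays of a number share a source was not tested further. Alternatives were other offsets, filters and scalings, no variance trend, a replicate block, the mean of a gene's probe sets, and leaving out each array.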

Additional observations from a re-analysis of the deposited data

How the results depend on the processing

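Other filters, no variance trend and the replicate block cannot move a probe set's difference between cell types, so their values were bound to stay the same. Counting those in, 219 values of the 6 genes' differences were had under other settings. Of these, 210 moved by less than the spread between replicates, 4 moved further and 5 changed sign. All 5 were values of eno1: its brightest probe set stood at -0.08 with quantile normalization, at -0.30 with scaling to the added transcripts and at -0.09 as the mean of its probe sets, and its dimmest probe set ran from -0.45 to 0.04 with an array left out, turning to 0.04 without array 2 of control cells and to 0.01 without array 3 of giant cells at 14 days. With the same scaling phi1 (-0.59), GAPC2 (-0.53) and eno2 (-0.41) turned negative too. The 4 values that moved further also came with this scaling. They were those of pdc3 (0.02), both GAPC1 probe sets (0.37 and 0.03) and the second brightest of eno1 (-1.11). The cause was not tested. The number of eno1, pdc2 or other probe sets of the 6 genes that changed with time in giant cells was 0, and 1 with a stricter filter, quantile normalization or the replicate block (each time the second brightest of eno1, adjusted p = 0.048 with the block). It ran from 0 to 1 with an array left out. Over all probe sets that number was 77, against 42 with no filter, 125 with a stricter filter, 118 with quantile normalization, 19 with scaling to the added transcripts, 48 with no variance trend and 48 with the replicate block. In control cells it was 3, against 1 with no filter, 0 with that scaling, 1 with no variance trend and 1 with the replicate block. With an array left out these numbers ran from 4 to 205 in giant cells (4 without array 1 of giant cells at 21 days, 205 without array 1 of control cells at 14 days) and from 0 to 2 in control cells, and that of the difference between days from 0 to 9 (9 without array 2 of giant cells at 21 days). In their deviations 4 of 12 arrays correlated best with an array of their own number, which does not settle whether replicate numbers pair the arrays. With 3 arrays per group and dim signals for pdc1, pdc2 and aldh5, precision is limited.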
